A study of Mus musculus with 622 samples.

Results

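The genes described are 7 mouse transcription factor genes, Irx1, Irx2, Pou3f4, Hhex, Etv1, Meis2 and Tshz1, chosen by name under the heading of factors of the alpha, delta and pancreatic polypeptide (PP) cells of the pancreatic islet. They are 7 of the 44448 genes in an expression table of single islet cells. The table holds 622 cells from the islets of wild type C57BL/6 mice, each caught in a chamber of a Fluidigm C1 microfluidic chip, amplified with SMARTer chemistry and sequenced after Nextera XT tagmentation. All 622 carry the same description, with no treatment, no second genotype and no animal, culture or chip named for a cell. They therefore count as 1 sample, and no test between conditions was possible. Values are given in RPKM, reads scaled to the length of the gene model and to the mapped reads of the cell. A gene is called detected in a cell at 1 RPKM or more.

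The islet holds beta cells that secrete insulin, alpha cells that secrete glucagon, delta cells that secrete somatostatin and PP cells that secrete pancreatic polypeptide. Each type arises from a shared endocrine progenitor, and its identity is held by transcription factors that switch on its own hormone and keep those of the other types off. Irx1 and Irx2 are Iroquois homeodomain factors, Pou3f4 (also Brn4) is a POU homeodomain factor that binds the glucagon gene promoter, and Hhex is a homeodomain factor that delta cells need. Etv1 is an ETS factor, Meis2 is a TALE homeodomain factor that works with PBX partners, and Tshz1 is a zinc finger homeobox factor of the Teashirt family.

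Cells were grouped by hormone transcripts. A minimum of 1000 detected genes left 593 of the 622. A cell belonged to a hormone class where that hormone held at least 90% of the summed RPKM of Ins1, Ins2, Gcg, Sst and Ppy. By this rule 395 cells (66.6%, exact 95% interval 62.7% to 70.4%) were insulin cells, 33 (5.56%, 3.86% to 7.73%) glucagon cells, 13 (2.19%, 1.17% to 3.72%) somatostatin cells and 11 (1.85%, 0.930% to 3.29%) PP cells. The other 141 cells held no hormone at 90%. Among them, 62 held insulin with glucagon, 24 insulin with somatostatin, 21 insulin with PP, 15 somatostatin with PP, 4 glucagon with PP and 1 glucagon with somatostatin, and 14 held at least 3 hormones at 10% or more of the sum. Intervals on shares are Clopper-Pearson and cover counting error only. Where a gene was detected in 0 cells, the limit given is the share that 3 cells would make.

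Mapped reads ran from 2461 to 6111832 per cell, with a median of 1119227, and the lowest cell that passed held 135830. The table is made of 2 sets of columns: 359 cells are written in full precision (median 811202 mapped reads and 5754 genes detected) and 263 are rounded to 4 decimals (median 1607351 mapped reads and 4124 genes). What the sets stand for is not given in the sources used here, so values within each set stand beside the pooled ones for many ratios. They are also given for many, but not all, results whose call or direction differs. Insulin cells split 226 to 169 between the sets, glucagon cells 17 to 16, somatostatin cells 6 to 7 and PP cells 6 to 5. Median genes detected were 5259 in insulin, 4576 in glucagon, 4371 in somatostatin and 3798 in PP cells. Marker lists were checked, each of which holds the hormone that defined its class. All 5 alpha cell markers had a median of 1 RPKM or more in glucagon cells, but 4 did in PP and 3 in insulin cells, and 3 of 4 delta cell markers did in somatostatin cells against 1 in insulin and 2 in glucagon and in PP cells. All 8 beta cell markers did in insulin cells, against 4 in each other class. Of the 3 PP markers, 2 did in each of the 4 classes, so by this count the list did not set PP cells apart. Fev, a serotonergic ETS factor listed as a PP marker, was detected in 0 of the 11 PP cells. Cells with at least 3 markers of immune, stellate, endothelial, glial, ductal or acinar cells at 10 RPKM made the largest share of the PP class: 8 of 11 PP cells were free of them, as were 379 of 395 insulin, 31 of 33 glucagon and 12 of 13 somatostatin cells. Leaving out all such cells kept each of the 23 class differences past 2-fold found for the 7 genes.

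Across the 593 cells, Irx1 was detected in 49, Irx2 in 67, Pou3f4 in 18, Hhex in 91, Etv1 in 267, Meis2 in 457 and Tshz1 in 521. So 4 of the genes were sparse, Etv1 was intermediate, and Meis2 and Tshz1 were detected in most cells of the 4 single-hormone classes. The first 5 were higher in at least 1 non-insulin class. The heading did not hold for Meis2 and Tshz1. Pooled means of Meis2 lay within 2-fold of each other in the 4 classes, although by medians somatostatin cells were past 2-fold above insulin cells (log2 ratio 1.18) and PP cells (1.26). The pooled mean of Tshz1 was 36.7 RPKM in insulin and 35.3 RPKM in PP cells, against 11.3 in glucagon and 15.2 in somatostatin cells.

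The sequences just upstream of 3 genes are shown because, of the 5 genes found in the RefSeq promoter table, these had the narrowest patterns over the hormone classes: Irx2 for glucagon cells, Hhex for somatostatin cells and Pou3f4 for a few glucagon and PP cells. Irx1, narrower still, is named only. The sequences are on GRCm38.p6, plus strand. Each window stops before the first base of the gene's first exon in GENCODE on GRCm38. The RefSeq span of Irx2 starts farther upstream, so its window lies inside that span, in the 255 bases between its GENCODE first exon and the noncoding RNA gene Gm20554, which is read the other way. Capitals mark CCAAT boxes (CCAAT, or ATTGG on the other strand) and GC boxes (GGGCGG on either strand).
Irx2, chr13:72628570-72628819: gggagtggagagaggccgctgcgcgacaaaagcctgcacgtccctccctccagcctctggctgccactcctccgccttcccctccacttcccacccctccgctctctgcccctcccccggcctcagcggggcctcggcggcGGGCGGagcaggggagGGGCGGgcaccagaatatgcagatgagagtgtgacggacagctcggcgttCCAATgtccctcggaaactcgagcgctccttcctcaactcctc
Hhex, chr19:37434591-37434809: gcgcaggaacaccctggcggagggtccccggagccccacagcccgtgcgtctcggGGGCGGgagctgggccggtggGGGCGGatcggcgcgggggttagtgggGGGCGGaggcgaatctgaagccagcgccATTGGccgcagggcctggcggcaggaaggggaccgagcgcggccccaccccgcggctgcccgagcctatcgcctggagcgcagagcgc
Pou3f4, chrX:110814129-110814279: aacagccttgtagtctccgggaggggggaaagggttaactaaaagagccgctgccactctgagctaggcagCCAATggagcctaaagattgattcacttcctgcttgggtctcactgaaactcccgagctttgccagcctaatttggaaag

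The windows differed in composition: Irx2 held 19 CpG in 250 bases (68.4% G or C), Hhex 26 in 219 bases (77.2%) and Pou3f4 3 in 151 bases (51.7%). Irx2 had 2 GC boxes and 1 CCAAT box, Hhex 3 GC boxes and 1 CCAAT box, and Pou3f4 a CCAAT box alone. Of 32851 RefSeq promoters, 32.7% held a GC box and 33.8% a CCAAT box in the same 250 bases, 28.3% and 30.9% in the 219 bases matched to Hhex, and 16.8% and 20.1% in the 151 bases matched to Pou3f4. These letters are therefore common at promoters in general. A TATA box (TATAAA), a homeodomain core (TAATTA), a forkhead core (TGTTTAC) and a MEIS core (TGACAG), searched on both strands, had no match in the 3 windows; they occur in 12.4%, 4.84%, 3.17% and 15.9% of promoters over 250 bases. In these motif searches no GC box overlapped a CCAAT box.

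Among the single-hormone classes, Irx1 and Irx2 were mostly found in glucagon cells. Both lie on chromosome 13 of GRCm38, Irx1 (Entrez 16371) at 71958232 to 71963723 and Irx2 (Entrez 16372) at 72624430 to 72634196, 660706 bases apart. In the 33 glucagon cells Irx1 ran from 0 to 62.7 RPKM with a median of 0.524 and a mean of 4.27, and it was detected in 16 (48.5%, 30.8% to 66.5%). Glucagon cells thus ranged from none to the highest level of Irx1 in the table. In insulin cells Irx1 was detected in 1 of 395 (0.253%, 0.00641% to 1.40%), at 12.9 RPKM, with a median of 0 and a mean of 0.0366. It was listed at 0 in all 13 somatostatin cells and all 11 PP cells, which allows shares of up to 23.1% and 27.3%. The interval for glucagon cells lay above that for insulin cells.

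Irx2 had a higher median and mean than Irx1 in the same glucagon cells. Irx2 ran from 0 to 92.9 RPKM with a median of 3.81 and a mean of 12.3, and was detected in 19 of 33 (57.6%, 39.2% to 74.5%). The intervals of the 2 genes overlapped, and each had a value above 0 in 20 glucagon cells, so their order cannot be told from detection. For both genes the mean depended in part on 1 cell, in proportion more so for Irx1. The second highest glucagon cell for Irx2 held 66.5 RPKM, so its mean without the highest cell was 9.78. For Irx1 the second cell held 28.0 RPKM, and the mean without the highest was 2.45. In insulin cells Irx2 was detected in 10 of 395 (2.53%, 1.22% to 4.61%), with a mean of 0.648 and a highest cell of 67.7 RPKM, inside the glucagon range. It was listed at 0 in every somatostatin cell, and the PP cells reached at most 0.426 RPKM. Among glucagon cells Irx1 was detected in 7 of 17 full-precision and 9 of 16 rounded cells, and Irx2 in 9 of 17 and 10 of 16. Their means were higher in the full-precision cells, at 6.80 against 1.58 RPKM for Irx1 and 18.1 against 6.15 for Irx2. When each cell was thinned to 250000 reads, the expected share of glucagon cells with a read was 43.1% for Irx1 and 55.0% for Irx2.

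**Figure D1:**
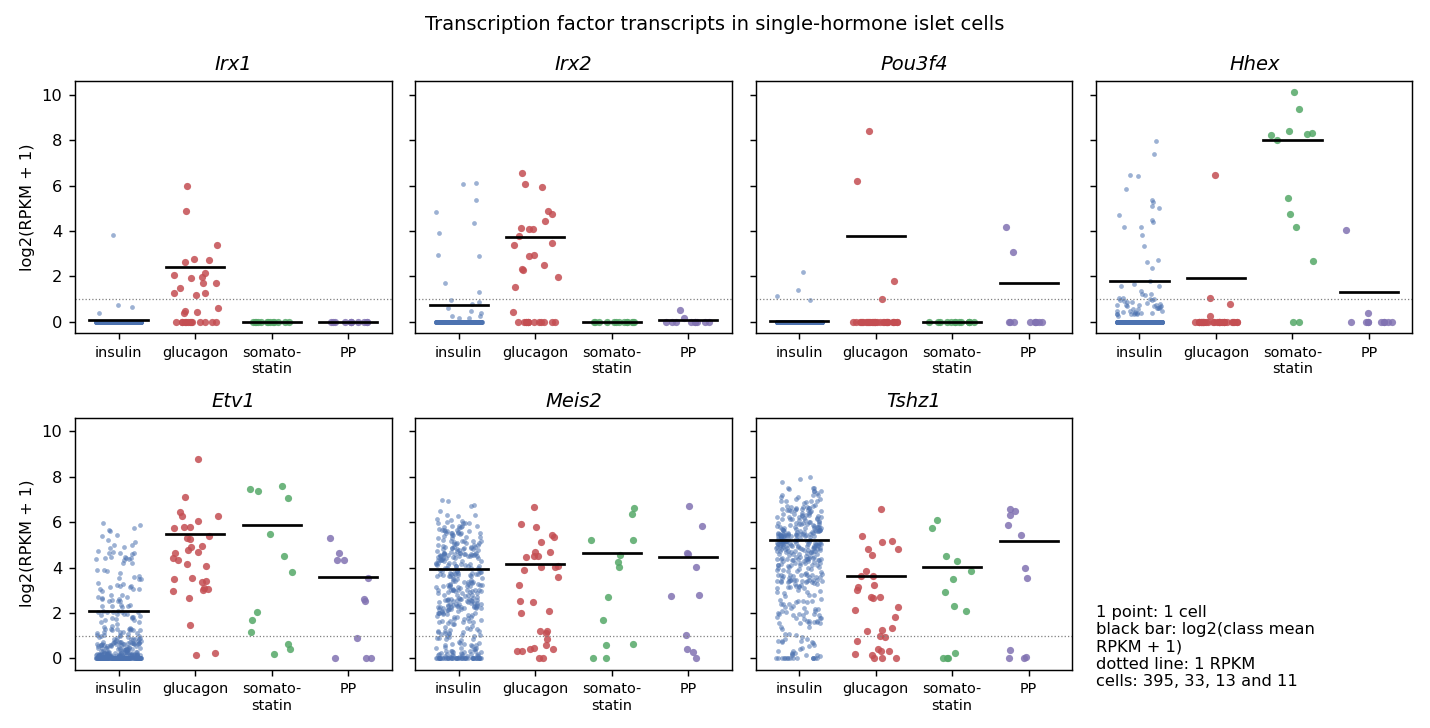
RPKM of the 7 genes in each of the 452 single-hormone cells, by hormone class, on a log2(RPKM + 1) axis; each point is a cell, the bar is the class mean of the RPKM put on that axis, and the dotted line is 1 RPKM. Irx1 and Irx2 rise off 0 in glucagon cells, Hhex in somatostatin cells, and Meis2 and Tshz1 spread over every class.

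The annotated span of Irx2 overlaps the long noncoding RNA Gm20554 (72623466 to 72628564), which is read from the opposite strand. The kit does not mark strand, so reads in the overlap cannot be assigned by strand. Gm20554 was detected in 4 of 33 glucagon cells with a mean of 1.65 RPKM, and Irx2 was detected without it in 16 glucagon cells, with it in 3. Most glucagon cells with Irx2 thus had no Gm20554 detected.

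The pair was often, but not always, found in the same glucagon cells. Both were detected in 12 of the 33, only Irx1 in 4, only Irx2 in 7 and neither in 10. Over the 452 single-hormone cells the log2 values of Irx1 and Irx2 had a correlation of 0.51, in which the zeros of the other classes take part, since the cells share 1 table and differ in depth. Etv1 was detected in all 23 glucagon cells with Irx1 or Irx2 and in 8 of the 10 with neither, and Pou3f4 in 0 of the 23 and 4 of the 10. Median depth was 1321083 mapped reads and 4771 genes in the 23 cells, against 927203 reads and 4132.5 genes in the 10; the part of depth in this split was not tested.

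Pou3f4 was found in very few glucagon cells. The gene (Entrez 18994) lies on chromosome X at 110814379 to 110819108. Of 33 glucagon cells, 4 (12.1%, 3.40% to 28.2%) had it, at 341, 73.1, 2.49 and 1.02 RPKM, and the median was 0. The class mean of 12.7 RPKM rested on the highest cell, without which it was 2.39. All 4 were full-precision cells, and it was detected in 0 of the 16 rounded glucagon cells. None of the 4 reached 1 RPKM of Irx1 or Irx2, and all 4 had Etv1.

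In PP cells Pou3f4 was detected in 2 of 11 (18.2%, 2.28% to 51.8%), at 17.2 and 7.27 RPKM, so the glucagon and PP ranges overlapped. Insulin cells had it in 3 of 395 (0.759%, 0.157% to 2.20%), at no more than 3.57 RPKM, and it was listed at 0 in the 13 somatostatin cells. Over all 593 cells 18 had Pou3f4, and 16 of these were full-precision cells. Etv1 was detected in 15 of the 18, Irx1 or Irx2 in 6 and Hhex in 0.

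**Figure D2:**
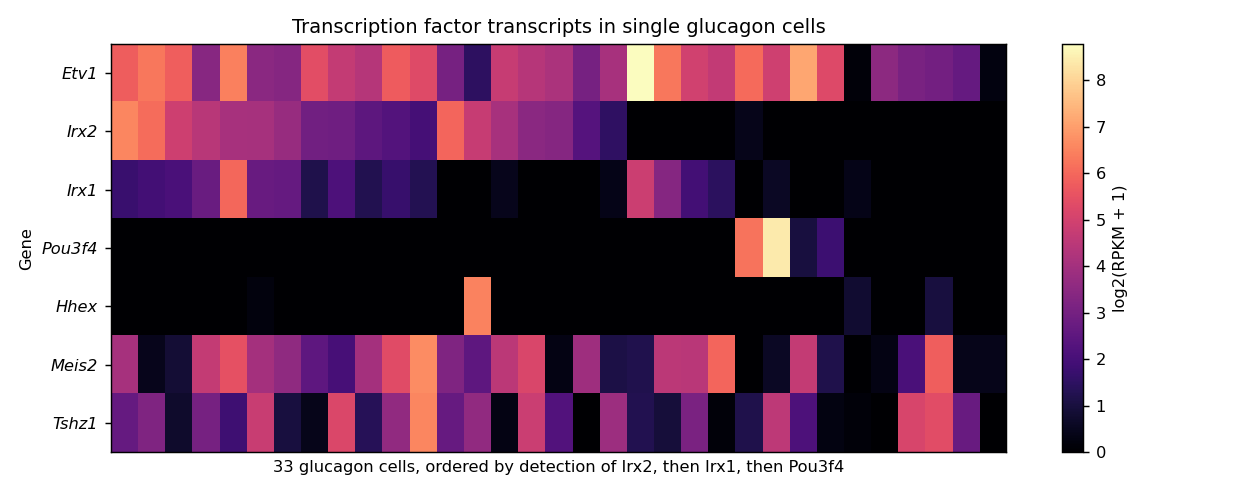
Heat map of the 33 glucagon cells (columns, ordered by detection of Irx2, then Irx1, then Pou3f4) for the 7 genes (rows), in log2(RPKM + 1). Etv1 fills nearly every column, Irx1 and Irx2 fill overlapping subsets, and the 4 cells with Pou3f4 are under 1 RPKM for both of these.

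Hhex had the largest difference in mean between single-hormone classes of the 7 genes. It (Entrez 15242) lies on chromosome 19 at 37434841 to 37440731. In the 13 somatostatin cells it ran from 0 to 1098 RPKM with a median of 253 and a mean of 259, and it was detected in 11 (84.6%, 54.6% to 98.1%). The second highest cell held 660 RPKM and the lowest with detection 5.29, so the somatostatin cells varied widely among themselves. The 2 cells without Hhex were rounded cells with 2474 and 1833 genes detected. The mean was 277 RPKM in 6 full-precision and 243 in 7 rounded cells, and the rounded mean without its highest cell was 100.4 RPKM.

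Other classes had little Hhex in most cells and much in a few. Insulin cells had it in 30 of 395 (7.59%, 5.18% to 10.7%), with a median of 0, a mean of 2.42 and a highest cell of 246 RPKM. Glucagon cells had it in 2 of 33 (6.06%), at 88.6 and 1.04 RPKM, and PP cells in 1 of 11 (9.09%), at 15.6 RPKM. The interval for somatostatin cells lay above those of the other 3 classes, although the ranges of the RPKM values overlapped. In insulin cells the share was 4.87% in full-precision and 11.2% in rounded columns.

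Etv1 was detected in most cells of all 3 non-insulin classes. It (Entrez 14009) lies on chromosome 12 at 38780082 to 38870483 and has the longest gene model of the 7, 11319 bases. In glucagon cells the median was 24.1 RPKM and the mean 43.8, with a highest cell of 437, and 31 of 33 (93.9%, 79.8% to 99.3%) had it. In somatostatin cells the median was 13.1, the mean 58.0 and the highest cell 193 RPKM, with 10 of 13 (76.9%, 46.2% to 95.0%) detected. PP cells were lower, with a median of 5.10, a mean of 11.2, a highest cell of 38.9 RPKM and 7 of 11 (63.6%, 30.8% to 89.1%) detected. The intervals of these 3 classes overlapped, so their order cannot be told from detection.

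Insulin cells had the lowest Etv1, with a median of 0.144, a mean of 3.27 and a highest cell of 61.7 RPKM. It was detected in 110 of 395 (27.8%, 23.5% to 32.6%), an interval below those of glucagon and somatostatin cells that touched that of PP cells. At least 1 read was present in 258 of the insulin cells, as a read weighs little on so long a model. Without its highest cell the glucagon mean was 31.5 RPKM.

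Meis2 and Tshz1 were broadly detected. Meis2 (Entrez 17536) lies on chromosome 2 at 115861264 to 116067537. It was detected in 301 of 395 insulin cells (76.2%), 24 of 33 glucagon cells (72.7%), 9 of 13 somatostatin cells (69.2%) and 8 of 11 PP cells (72.7%). Medians were 6.27, 8.39, 15.4 and 5.86 RPKM and the highest cells 124, 99.5, 96.7 and 103 RPKM in the same order. The 4 classes overlapped over nearly their whole ranges. Detection in insulin cells was 88.5% in full-precision and 59.8% in rounded columns, a wider gap than any between classes.

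Tshz1 (Entrez 110796) lies on chromosome 18 at 84011627 to 84087708. Insulin cells had it in 358 of 395 (90.6%, 87.3% to 93.3%), with a median of 25.4, a mean of 36.7 and a highest cell of 251 RPKM. Glucagon cells had it in 22 of 33 (66.7%, 48.2% to 82.0%), with a median of 3.74, a mean of 11.3 and a highest cell of 93.4 RPKM. Detection was lower in glucagon than in insulin cells beyond their intervals, while the levels overlapped. Somatostatin cells had a median of 6.55 and a mean of 15.2 RPKM (9 of 13 detected), and PP cells a median of 14.6 and a mean of 35.3 RPKM (7 of 11 detected). Their intervals reached that of insulin cells. In full-precision columns Tshz1 was detected in 97.3% of insulin, 50.0% of 6 somatostatin and 83.3% of 6 PP cells. In rounded columns the shares were 81.7%, 85.7% of 7 and 40.0% of 5, so the order of insulin and somatostatin cells turned. Meis2 and Tshz1 were detected together in 288 of the 395 insulin cells, and their log2 values had a correlation of 0.235 over those cells, which share 1 table and differ in depth.

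The class means were then compared as log2((mean + 1)/(mean + 1)), with a pseudocount of 1 RPKM, over all genes whose mean reached 1 RPKM in either class. These ratios have no replicate check, and the pseudocount understates the difference of low genes. Against insulin cells, glucagon cells were past 2-fold higher for 4 of the 7 genes and lower for 1; of all genes tested, 10.7% were higher and 22.6% lower. The log2 ratios were 3.75 for Pou3f4, 3.39 for Etv1, 3.01 for Irx2, 2.35 for Irx1, 0.18 for Meis2, 0.13 for Hhex and -1.62 for Tshz1, with a median of 2.35 beside -0.20 over all genes tested. The 7 genes were chosen with such patterns known, so nothing is read from their share against that of all genes. Within column sets the ratios of Irx1, Irx2 and Etv1 kept their direction, at 2.96, 3.69 and 3.73 in full-precision and 1.26, 1.93 and 2.75 in rounded cells. Without the highest cell of each class, the log2 ratio of Pou3f4, glucagon cells against insulin cells, was 1.75, and the log2 ratio of Hhex, glucagon cells against insulin cells, was -1.40. In the column sets the ratio of Pou3f4 was 4.63 in full-precision cells and 0 in rounded ones, where both classes were listed at 0, and that of Hhex was 1.69 and -2.35. Tshz1 was lower in both sets, at -1.91 and -1.33. Meis2 turned with the column set, from -0.30 in full-precision to 0.74 in rounded cells.

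Against insulin cells, somatostatin cells were past 2-fold higher for 2 and lower for 1 of the 4 genes tested, beside 20.0% and 29.1% of all genes. Hhex had a log2 ratio of 6.24 (7.16 in full-precision and 5.50 in rounded cells), Etv1 3.79, Meis2 0.70 and Tshz1 -1.22, with a median of 2.25 beside -0.11 over all genes. Hhex had the largest difference of the 7 genes in this comparison, and Irx1, Irx2 and Pou3f4 were too low in both classes to be tested. PP cells were past 2-fold higher than insulin cells for 2 and lower for 0 of 5 genes, beside 16.0% and 33.2% of all genes. Pou3f4 had a log2 ratio of 1.66, Etv1 1.51, Meis2 0.52, Tshz1 -0.05 and Hhex -0.49, with a median of 0.52 beside -0.39. Tshz1 and Hhex turned with the column set, at 0.09 and 0.90 in full-precision and -0.25 and -2.43 in rounded cells. The PP ratio of Pou3f4 rested on 2 cells and was 0.77 without the highest.

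Among the non-insulin classes, glucagon cells were past 2-fold higher than somatostatin cells for 3 and lower for 1 of 7 genes, beside 25.9% and 28.2% of all genes. The 3 were Irx1, Irx2 and Pou3f4, listed at 0 in somatostatin cells, so no ratio is given for them. Hhex was lower with a log2 ratio of -6.12, while Etv1 (-0.40), Meis2 (-0.52) and Tshz1 (-0.40) were within 2-fold. Etv1 and Meis2 turned with the column set, Etv1 from 0.59 in full-precision to -1.67 in rounded cells and Meis2 from -1.27 to 0.30. Glucagon cells were past 2-fold higher than PP cells for 4 and lower for 1 of 7 genes, beside 28.5% and 22.6% of all genes. The ratios were 3.67 for Irx2, 2.08 for Pou3f4, 1.88 for Etv1 and -1.56 for Tshz1, and Irx1 was listed at 0 in PP cells. Pou3f4 turned to -1.30 in rounded cells, where 0 of 16 glucagon and 1 of 5 PP cells had it. Without the highest cell of each class it was 0.97. Somatostatin cells were past 2-fold higher than PP cells for 2 and lower for 2 of 5 genes, beside 33.9% and 25.7% of all genes. Hhex had a ratio of 6.73, Etv1 2.28 and Tshz1 -1.17, Meis2 was within 2-fold at 0.18, and Pou3f4 was listed at 0 in somatostatin cells. In rounded cells Tshz1 was within 2-fold at -0.97, beside -1.28 in full-precision cells. Meis2 turned from 0.44 in full-precision to -0.09 in rounded cells. These comparisons share classes, so they are not independent of each other.

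**Figure D3:**
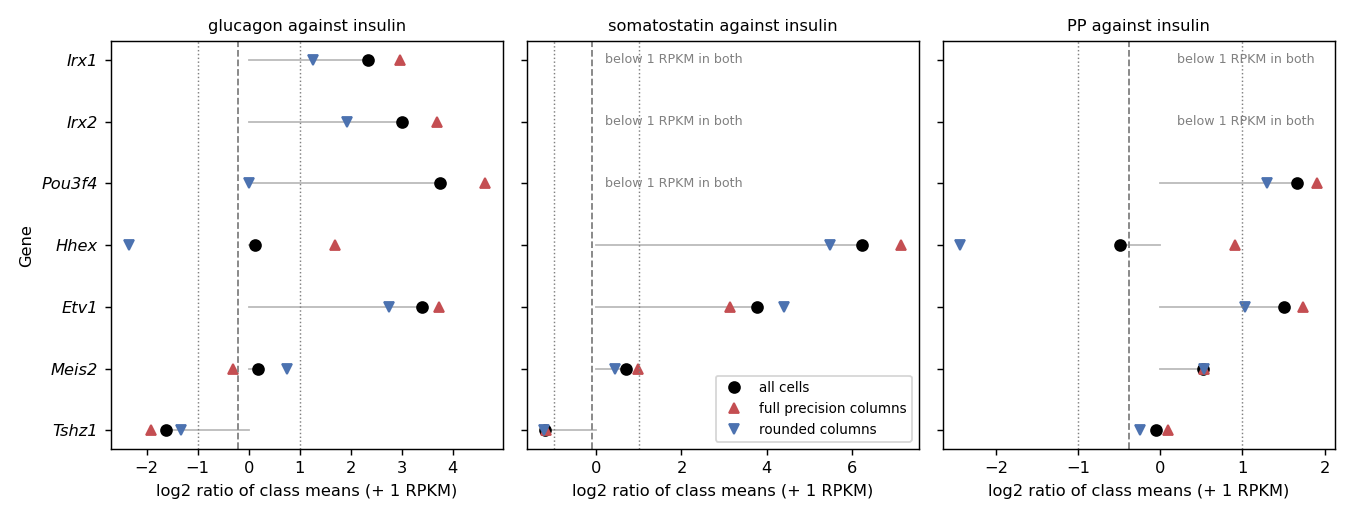
Log2 ratio of class means, log2((mean + 1)/(mean + 1)) of RPKM, for the 7 genes against insulin cells, in all cells, in full-precision columns and in rounded columns, with dotted lines at 2-fold and a dashed line at the median of all genes tested. Irx1, Irx2 and Etv1 are past 2-fold in glucagon cells in both column sets, and so is Hhex in somatostatin cells, while Pou3f4 in glucagon cells is past it in full-precision columns alone.

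Cells were also ordered by the share of a hormone, which shows how the genes go through the mixed cells. With a glucagon share under 0.1%, 0.1% to 1%, 1% to 10%, 10% to 50%, 50% to 90% and at least 90% (412, 55, 18, 55, 20 and 33 cells), Irx2 was detected in 1.46%, 5.45%, 16.7%, 47.3%, 50.0% and 57.6% of cells. Irx1 was detected in 0%, 0%, 11.1%, 38.2%, 50.0% and 48.5%, and Etv1 in 35.2%, 38.2%, 44.4%, 78.2%, 95.0% and 93.9%. Detection of all 3 was thus higher in the cells with 10% or more glucagon, whether or not insulin led. Tshz1 was detected in 90.5%, 83.6%, 83.3%, 89.1%, 80.0% and 66.7%.

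Hhex was frequent at lower shares of its hormone than Irx1 or Irx2, but the bins are not alike for these genes. In its own class Hhex had a median of 253 RPKM, against 3.81 for Irx2 and 0.524 for Irx1 in glucagon cells. Median summed hormone RPKM was 125215 in somatostatin cells and 284665 in glucagon cells. The part of these levels in the order was not tested. In the same bins of somatostatin share (429, 82, 31, 24, 14 and 13 cells) Hhex was detected in 3.96%, 8.54%, 71.0%, 91.7%, 85.7% and 84.6% of cells. Its mean was 0.987, 0.750, 48.8, 117, 178 and 259 RPKM. Of the 12 insulin cells with 1% to 10% somatostatin, 8 had Hhex (66.7%, 34.9% to 90.1%), with a mean of 47.3 RPKM. In insulin cells with less than 0.1% somatostatin, 16 of 320 (5.00%) had it, and between 0.1% and 1%, 6 of 63 (9.52%). Irx2 was detected in 4 of 344, 3 of 37 and 3 of 14 insulin cells over the same bins of glucagon share. A chamber that caught a pair of cells and a single cell with several hormones give the same values, and cannot be told apart here.

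**Figure D4:**
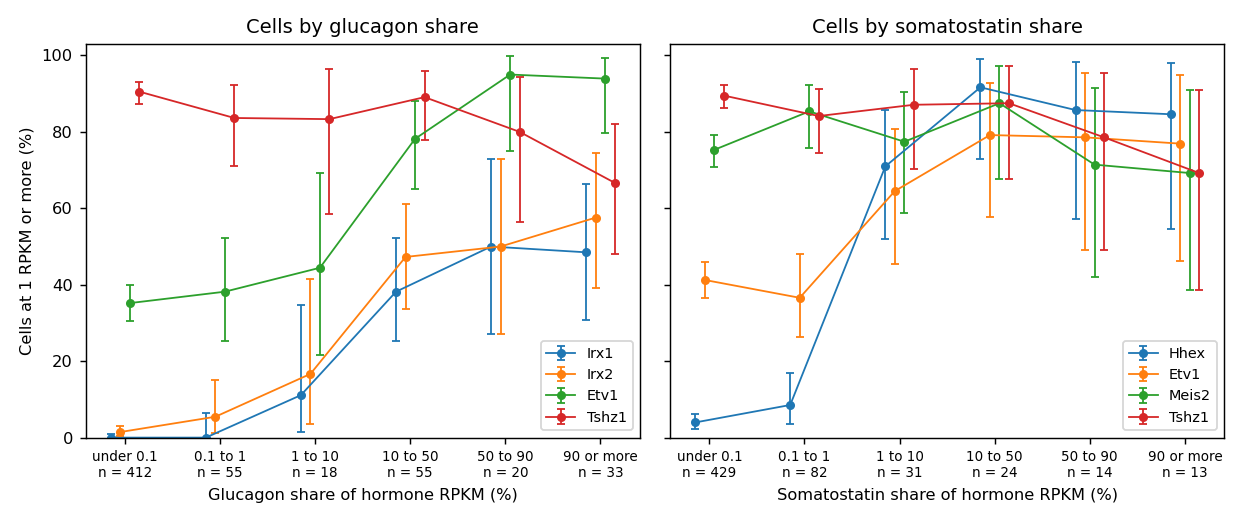
Percent of cells with each gene detected (1 RPKM or more) against the share of glucagon or of somatostatin in the summed hormone RPKM, in 6 bins over the 593 cells; bars are exact 95% intervals for counting error. Irx1, Irx2 and Etv1 are more often detected from 10% glucagon on, and Hhex from 1% somatostatin on.

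In the 62 insulin and glucagon cells, Irx1, Irx2, Etv1 and Pou3f4 were detected nearly as often as in glucagon cells. Irx1 ran from 0 to 43.2 RPKM with a median of 0.276 and was detected in 27 (43.5%, 31.0% to 56.7%). Irx2 ran from 0 to 71.2 RPKM with a median of 0.506 and was detected in 28 (45.2%, 32.5% to 58.3%). Etv1 had a median of 17.8 RPKM, with 50 (80.6%, 68.6% to 89.6%) detected, or 90.2% of full-precision and 61.9% of rounded cells. Pou3f4 was detected in 7 (11.3%, 4.66% to 21.9%) at no more than 43.7 RPKM. All 4 intervals overlapped those of the glucagon cells. Hhex was detected in 2 of the 62, and Tshz1 in 56 (90.3%, 80.1% to 96.4%), a share like that of insulin cells.

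Irx2 and factors of beta cells were detected in the same cells. Of the 28 insulin and glucagon cells with Irx2, 21 had Nkx6-1 and 13 had Pdx1. Nkx6-1 and Pdx1 are homeodomain factors of beta cells. Both were also frequent in insulin and glucagon cells without Irx2, where 21 had Nkx6-1 and 13 did not, and 14 had Pdx1 and 20 did not. By comparison, Nkx6-1 was detected in 12.1% and Pdx1 in 3.03% of glucagon cells. In the 47 of these cells where insulin exceeded glucagon, Irx1 was detected in 40.4%, Irx2 in 44.7% and Etv1 in 76.6%. In the 15 where glucagon exceeded insulin the shares were 53.3%, 46.7% and 93.3%. Cells with both hormones had more genes detected (median 5918) than glucagon cells (4576).

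Hhex was present in most mixed cells with somatostatin. In 24 insulin and somatostatin cells its median was 55.8 RPKM, its mean 106 and its highest cell 374, with 19 (79.2%, 57.8% to 92.9%) detected. In 15 somatostatin and PP cells the median was 46.7, the mean 183 and the highest cell 997 RPKM, with 14 (93.3%, 68.1% to 99.8%) detected. Both shares overlapped that of the somatostatin cells. Of 21 insulin and PP cells 12 (57.1%) had Etv1, or 83.3% of full-precision and 22.2% of rounded cells, and 5 (23.8%) had Hhex. The single glucagon and somatostatin cell held 117 RPKM of Hhex. Hhex was found with Pdx1 in 15, with Nkx6-1 in 14 and with Etv1 in 16 of the 24 insulin and somatostatin cells.

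Irx1 was listed at under 1 RPKM in every insulin and somatostatin, insulin and PP, and somatostatin and PP cell, with limits of 12.5%, 14.3% and 20.0%. Irx2 was detected in 2 of the 21 insulin and PP cells and in 0 of the other two groups. Of the 4 glucagon and PP cells 2 had Irx1, 1 had Irx2 at 93.0 RPKM, the highest value in the table, 1 had Pou3f4 at 40.7 RPKM and 4 had Etv1. Among the 14 cells with 3 hormones, 7 had Irx2, 3 Irx1, 6 Hhex, 13 Etv1 and 1 Pou3f4, at 52.6 RPKM. Tshz1 reached 578 RPKM in a somatostatin and PP cell, where the class mean was 87.8 RPKM with that cell and 52.8 without it.

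**Figure D5:**
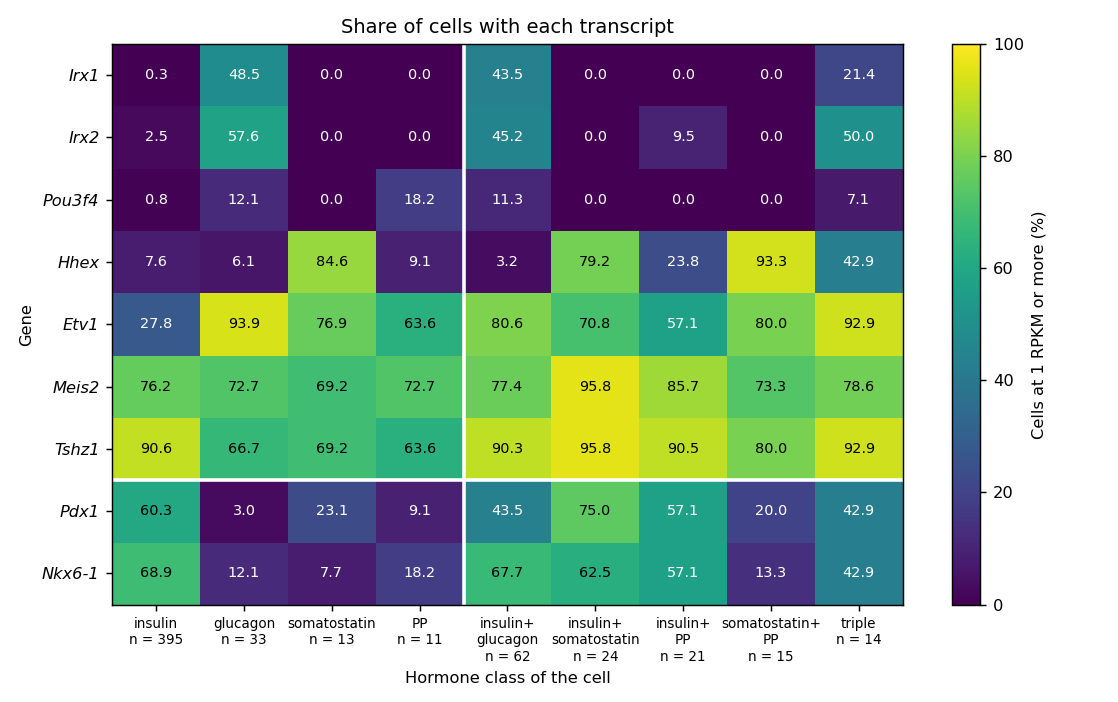
Heat map of the percent of cells with each of the 7 genes, and with Pdx1 and Nkx6-1, detected at 1 RPKM or more (rows) in the single-hormone and mixed classes (columns); the number in each field is the percent, and triple means 3 hormones at 10% or more. Irx1 and Irx2 stand out in the classes with glucagon and Hhex in those with somatostatin, while Meis2 and Tshz1 are above 60% in the 4 single-hormone classes.

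Relatives of the 7 genes were compared in the same ratios, as 19 other genes of the Iroquois, ETS PEA3, POU3, MEIS, PBX and Teashirt families. In glucagon against insulin cells 0 of the 9 tested were past 2-fold higher and 2 lower, Etv5 (-2.28), an ETS factor closest to Etv1, and Pbx3 (-1.19), a partner of MEIS proteins. Their median was -0.19, and both the median and the share of lower genes were close to those of all genes (-0.20 and 22.6%). Of all genes, 10.7% were higher. In somatostatin against insulin cells 2 of 9 were higher, the Teashirt genes Tshz3 (1.80) and Tshz2 (1.47), and 3 lower, Meis3 (-2.96), Pbx3 (-2.59) and Pknox1 (-2.41), with a median of 0.04, beside 20.0% higher and 29.1% lower of all genes. In PP against insulin cells 1 of 9 was higher, Tshz2 (1.10), and 3 lower, Meis1 (-2.24), Etv5 (-1.82) and Pbx2 (-1.26), beside 16.0% and 33.2% of all genes. These relatives of Etv1, Meis2 and Tshz1 had ratios of other size or direction than the genes themselves.

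Of 33 other islet transcription factors, 25 were tested between glucagon and insulin cells, with 4 past 2-fold higher, 6 lower and a median of -0.20, beside 10.7% and 22.6% of all genes. The higher genes included Fev (1.78) and Id4 (1.47), both with smaller ratios than Irx1, Irx2, Pou3f4 and Etv1. The lower ones included Mlxipl (-4.08), the carbohydrate response element binding protein, Pdx1 (-3.33) and Nkx6-1 (-2.62). In somatostatin against insulin cells 6 of 24 were higher and 4 lower, beside 20.0% and 29.1% of all genes, led by Neurog3 (3.69), the endocrine progenitor factor, and Isl1 (2.12), against the 6.24 of Hhex. In PP cells 3 of 23 were higher, among them Foxo1 (1.60), and 11 lower, beside 16.0% and 33.2% of all genes, with a median of -0.98.

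The genes most like each member were found by Pearson's correlation of log2(RPKM + 1) over the 452 single-hormone cells, among 15236 genes. Among the 3 genes most like Irx1 were Pdk4 (0.62), a pyruvate dehydrogenase kinase, and Higd1a (0.52). Among those most like Irx2 were Higd1a (0.55) and Wnk3 (0.52), so Higd1a stood near both Iroquois genes. Pou3f4 had lower values, with Gm10516 (0.42) and Pdk4 (0.39) first. Among those most like Hhex were Arg1 (0.59) and Ptprz1 (0.56). Etv1 was most like Gm5454 (0.54), the retinol binding protein gene Rbp4 (0.48) and the peptide YY gene Pyy (0.46). Meis2 had the weakest matches, Peg3 (0.36), Ctsl (0.33) and Bbx (0.33), and Tshz1 was nearest to Cd164 (0.43), Scg2 (0.42) and Pcsk1 (0.41), the prohormone convertase gene. The cells share 1 table, and depth and hormone class enter each of these values.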

How the data were processed

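The authors deposited 1 table of RPKM values, with Entrez gene identifiers as rows and 622 cells as columns. Per the submitters' processing notes, CASAVA 1.8.2 and FastQC were used with the GRCm38 (mm10) build; which aligner, counter and gene annotation made the values is not given in the sources used here. Symbols and positions come from RefSeq on GRCm38. No RPKM value was rescaled. Cells needed 1000 genes at 1 RPKM, and hormone classes needed 90% of the summed hormone RPKM. Low values are whole multiples of what 1 read is worth, and reads were recovered for 23105 genes; under 100 reads, 99.9% of values or more in each column set came out whole within 0.05 reads. These reads served to thin cells to 250000 reads, which left out 7 shallower cells. No doublet caller was run.

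All cells are 1 group, so no p-value was computed. Class means were compared with a pseudocount of 1 RPKM, over genes at 1 RPKM or more in either class mean, and called past 2-fold. The 7 genes, the lists and the comparisons were chosen with earlier results of these data known. The text names the 7 genes, the list genes past 2-fold and the 3 genes most correlated with each. Some genes that this rule names are not reported here. The hormone share bins, the split of glucagon cells by Irx1 and Irx2, the look at Gm20554, the list of Pou3f4 cells, the alternatives without the highest cell and at 500000 reads were chosen after seeing the data. Python 3.11.15, pandas 2.3.3, numpy 2.4.6, scipy 1.17.1 and matplotlib 3.10.9 were used. Scripts were tested on simulated data.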

Additional observations from a re-analysis of the deposited data

How the results depend on the processing

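The counts of the 7 genes past 2-fold (either direction) were recomputed under each alternative, and 75 of 84 stayed within 1.5 times the main count. With class medians in place of means they were 3 in glucagon against insulin cells, 3 in glucagon against PP cells, 2 in glucagon against somatostatin cells and 1 in PP against insulin cells. With a pseudocount of 10 RPKM they were 3 in glucagon against PP cells, 0 in PP against insulin cells and 2 in somatostatin against PP cells. The count in PP against insulin cells was 1 with cells of at least 2500 genes and 1 without cells above 25% mitochondrial RPKM. Of the 23 ratios past 2-fold, 15 stayed past it with class medians, 14 with a pseudocount of 10, 19 in rounded columns, 20 without the highest cell, 21 at 2500 genes and without mitochondrial cells, and 22 at hormone thresholds of 75% and 95%. Pou3f4 was -1.30 in glucagon against pancreatic polypeptide cells in rounded columns, a reversal. It rested on 1 of 5 rounded PP cells, at 7.27 RPKM, beside 0 of 16 rounded glucagon cells. The cause was not tested. No paired analysis was possible because the labels give no replicate numbers and a single group. The number of cells limits the small classes: 0 of 13 somatostatin cells allows a share of up to 23.1%. At a depth of 250000 reads the share of glucagon cells with a read was 43.1% for Irx1 and 55.0% for Irx2.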

Other observations

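The 29 cells under 1000 genes were left out of every class. Among them Hhex was detected in 3, Etv1 in 3, Tshz1 in 2 and Meis2 in 1, at 127 RPKM. Irx1, Irx2 and Pou3f4 were detected in 0 of the 29, which allows a share of up to 10.3%.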
